A study of Mus musculus with 2 samples.

Results

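The 10 genes described here, Cd5l, Gpnmb, Lgals3, Mpeg1, Cd68, Cd36, Fabp4, Fabp5, Adfp (now Plin2) and Emr1 (now Adgre1), are genes of macrophages and of the lipid-laden foam cells that macrophages become in the artery wall. They were taken by name from the probe annotation of the arrays, which held 16 probes for them among 41174 gene probes, and all 10 were among the 22801 genes that could be compared. The list was chosen by name with the arch over thoracic ratios of these same arrays already known, and was in that sense selected on the log2 ratio, so the ratios below are a description and carry no test.

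Foam cells arise when macrophages of the intima take up modified lipoproteins through scavenger receptors such as Cd36, break them down in lysosomes and store the cholesterol as esters in lipid droplets. Fatty acids freed on the way are carried by fatty acid binding proteins, droplets are coated by perilipins, and cholesterol leaves the cell through ATP-binding cassette exporters. In mice that lack apolipoprotein E such cells gather first at the aortic root and the inner curve of the arch.

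RNA came from the aortic wall of apoE-/- mice aged 16 weeks, with 3 males and 3 females pooled for each of 2 segments, and no mice with intact Apoe were included. The arch pool, labelled by the submitters as prone to atherosclerosis, took in the vessel from the aortic root through the arch to 2 mm into the thoracic aorta, and the thoracic pool, labelled as resistant, took in the 6 mm that follow. Vessels had been perfused with Triton X-100, a detergent, to take off the endothelium, and the study was directed at smooth muscle cells. Both pools were hybridised together on 2 two-colour Agilent whole mouse genome arrays, with the thoracic pool in Cy5 (red) on array 1 and the arch pool in Cy5 on array 2. The arrays therefore repeat 1 measurement of the same pools: a value after ± is the technical SD over both arrays (n = 2), the spread between mice was not measured, and no p-value is given. Pools said below not to overlap are separate beyond this technical spread only, and the share of all genes without overlap is not given. A log2 ratio is arch over thoracic, so that 1 stands for 2-fold more signal from the arch pool. In RNA of a whole tissue, more cells of a type and more RNA per cell cannot be told apart.

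Each array had 41534 gene spots, of which 76.5% to 82.6% were well above background, depending on pool and array. Negative control spots had mean signals of 77.0 to 97.1 and gene spots had medians of 132.4 to 142.2, so a probe of low signal has little room above background and its ratio is drawn towards 0. Of 14 smooth muscle marker genes all were well above background in both pools on both arrays. None reached the size rule given below, which 0.474% of all genes compared passed for the arch pool and 0.145% for the thoracic pool. The median log2 ratio of the 14 was 0.18, and -0.03 with median centring in place of loess. Acta2, Tagln and Myl9 were read on saturated probes. The 10 foam cell genes were likewise well above background in both pools on both arrays, as were 21770 of the 22801 genes compared, so the thoracic pool was not free of their RNA.

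The stretches of 250 bases before the annotated start of the gene are shown for the 4 genes in the promoter table with the largest ratios and for Cd68, a lysosomal protein used as a macrophage marker. They come from RefSeq (assembly GRCm38.p6), whose table held 7 of the 10 genes, and run 5′ to 3′ on the gene's own strand, which is the plus strand at chr3:87357631-87357880 for Cd5l, chr6:49036268-49036517 for Gpnmb, chr14:47373610-47373859 for Lgals3 and chr19:12460520-12460769 for Mpeg1, and the minus strand at chr11:69666171-69666420 for Cd68. Capitals mark matches to the AP-1 motif TGANTCA.
Cd5l: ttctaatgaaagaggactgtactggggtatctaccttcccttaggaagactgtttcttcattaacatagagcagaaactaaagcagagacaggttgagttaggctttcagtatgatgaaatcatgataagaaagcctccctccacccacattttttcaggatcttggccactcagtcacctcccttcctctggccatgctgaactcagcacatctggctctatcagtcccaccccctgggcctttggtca
Gpnmb: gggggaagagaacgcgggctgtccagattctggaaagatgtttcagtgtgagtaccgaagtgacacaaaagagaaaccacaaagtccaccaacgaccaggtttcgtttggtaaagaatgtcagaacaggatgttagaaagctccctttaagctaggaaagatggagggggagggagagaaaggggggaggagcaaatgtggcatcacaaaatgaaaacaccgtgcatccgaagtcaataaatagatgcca
Lgals3: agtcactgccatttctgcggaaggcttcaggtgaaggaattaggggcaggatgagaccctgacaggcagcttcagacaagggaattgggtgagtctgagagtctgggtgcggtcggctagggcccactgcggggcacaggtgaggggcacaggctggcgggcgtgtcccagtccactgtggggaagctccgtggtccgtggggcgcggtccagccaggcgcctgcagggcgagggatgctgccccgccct
Mpeg1: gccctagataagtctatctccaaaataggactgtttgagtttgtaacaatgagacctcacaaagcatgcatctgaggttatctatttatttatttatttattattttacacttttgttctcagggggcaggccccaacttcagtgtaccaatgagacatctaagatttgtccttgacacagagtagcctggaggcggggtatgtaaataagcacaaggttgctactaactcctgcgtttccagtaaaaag
Cd68: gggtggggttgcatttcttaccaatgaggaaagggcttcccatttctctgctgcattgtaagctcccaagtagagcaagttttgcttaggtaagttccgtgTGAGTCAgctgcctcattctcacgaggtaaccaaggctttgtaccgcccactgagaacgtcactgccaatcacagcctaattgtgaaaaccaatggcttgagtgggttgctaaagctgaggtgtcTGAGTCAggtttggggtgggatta
Over the window from 250 bases before to 50 bases after the start, 4 motifs were searched on both strands. AP-1, the site of Fos and Jun dimers, was matched in 2 of the 7 genes, in Cd68 at 149 and 24 bases before the start and in Gpnmb at 9 bases after it, and 7.81% of all 32851 windows held it. The PU.1 motif GAGGAAGT, named for the transcription factor of myeloid cells, was found in 0 of the 7 genes and in 3.2% of all windows. The E-box CACGTG was found in Adfp (Plin2), at 4 bases before the start, and in 7.15% of windows. AGGTCA, the core of nuclear receptor sites, was found in Adfp at 218 bases and in Cd36 at 228 bases before the start, on the opposite strand in both, and in 16.3% of windows. The printed stretches also differ in base composition, from 40.0% G and C in Mpeg1 to 66.0% in Lgals3. None of these matches was measured as bound or active here.

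Among the 10 genes, 5 were higher in the arch pool by the size rule, which asks for 2-fold or more in the mean and for 1.5-fold or more, with the same sign, on either array alone: Cd5l, Gpnmb, Lgals3, Mpeg1 and Fabp5. None of them was higher in the thoracic pool by that rule, and the other 5, Adfp, Cd68, Cd36, Fabp4 and Emr1, passed in neither direction. Of all genes compared, 0.474% passed as higher in the arch pool and 0.145% as higher in the thoracic pool. At 1.5-fold in the mean and on each array the count for the foam cell genes was again 5 and 0, beside 1.2% and 0.382% of all genes. As the genes were selected with these ratios in view, nothing is read from their share. Their median log2 ratio was 0.85, against -0.01 over all genes. Of the 10, 9 lay above 0, and 8 with saturated spots left out, where Fabp4 fell below 0. Over all genes 47.34% lay above 0, the share to set beside such counts in the other lists.

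**Figure D1:**
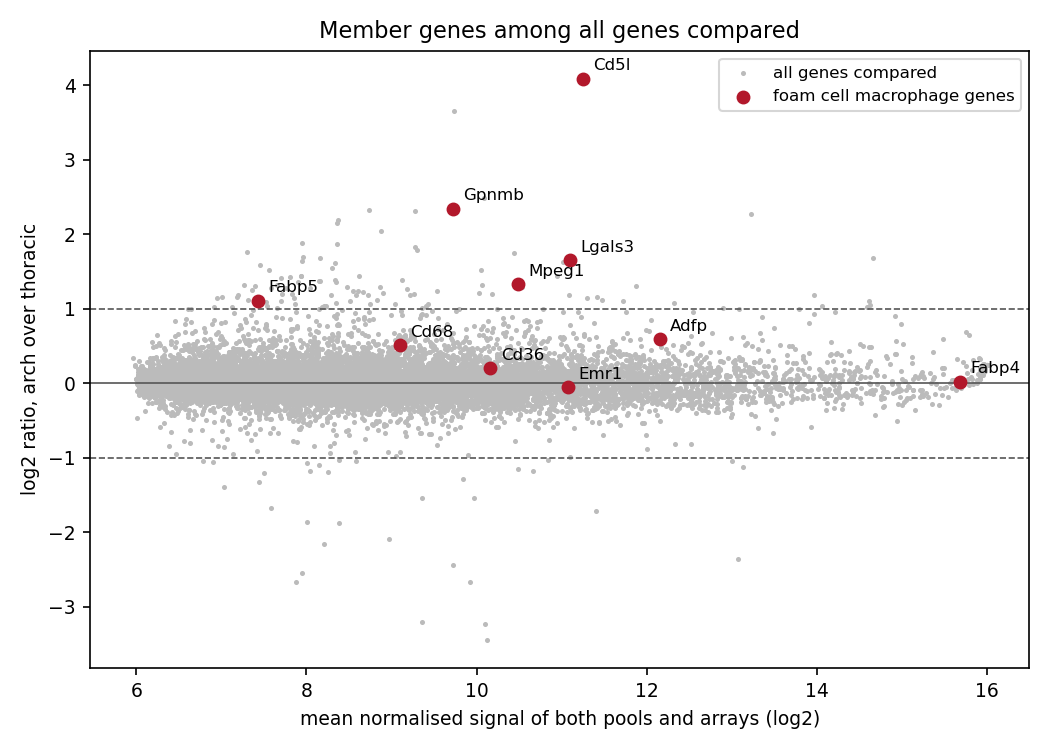
Log2 ratio of arch over thoracic (y axis) against the mean log2 signal of both pools and arrays (x axis) for the 22801 genes compared (grey) and the 10 foam cell genes (red), with dashed lines at 2-fold. Cd5l has the highest ratio of all genes, 4.09, while Emr1 and Fabp4 lie near 0 within the cloud.

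Cd5l encodes a protein secreted by macrophages that keeps them alive under lipid load. Its signal in the arch pool was 10133 on array 1 and 9901 on array 2, in normalised intensity units, and in the thoracic pool 560.1 and 619.9. The arch values lay far above the thoracic values on both arrays, with no overlap, and the ratio was 18.1-fold on array 1 and 16.0-fold on array 2. The mean log2 ratio of 4.09 ± 0.13 ranked first of all 22801 genes.

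Gpnmb and Cd68 are glycoproteins of the lysosome and late endosome, and Gpnmb is made in quantity by macrophages whose lysosomes are full of lipid. The brighter Gpnmb probe gave 1953 and 1857 in the arch pool and 359.6 and 393 in the thoracic pool, 5.07-fold more in the arch (log2 ratio 2.34 ± 0.14, rank 4). A second Gpnmb probe gave 63.8 and 70.9 against 56.6 on each array. Its thoracic signal was not well above background on either array and its arch signal on 1 array only, so it gives no usable fold. Cd68 gave 655 and 656 in the arch pool and 475 and 443 in the thoracic pool. Its groups did not overlap either, but the difference was 1.43-fold (0.51 ± 0.07, rank 422) and under the size rule.

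Lgals3, a galactose-binding lectin of activated macrophages, gave 3925 and 3820.3 in the arch pool and 1193 and 1271 in the thoracic pool, a difference of 3.15-fold (1.65 ± 0.09, rank 20). Every arch value was above every thoracic value. Mpeg1, a pore-forming protein of phagocytic vacuoles, gave 2267.5 and 2276 against 927 and 885 on its brighter probe, 2.51-fold (1.33 ± 0.05, rank 40). The arch values of that probe also stood clear of the thoracic ones. A dimmer Mpeg1 probe gave 98.3 and 100.2 against 72.6 and 82.5 (0.36 ± 0.11), higher in the arch pool on both arrays but under the 1.5-fold limit, and 0.99 in the deposited log ratio turned to log2.

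Emr1 encodes F4/80, the adhesion receptor by which mouse macrophages are commonly stained. It gave 2076.5 and 2139.7 in the arch pool and 2166.3 and 2221 in the thoracic pool (-0.06 ± 0.01), so both arch values lay just under both thoracic values. Its second probe gave 74.1 and 74.5 against 76.7 and 73.2 (-0.01 ± 0.05), and there the pools overlapped. In the 9 alternative settings run the gene stood between -0.12 and -0.04.

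**Figure D2:**
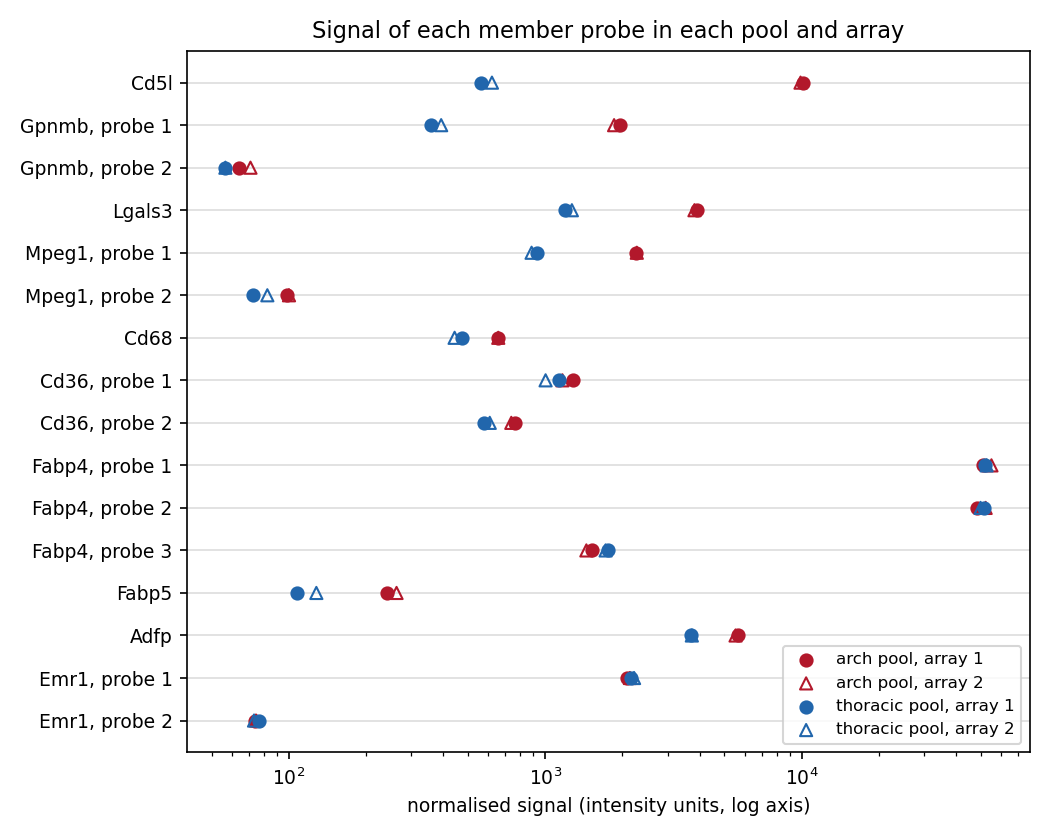
Normalised signal (x axis, intensity units, log axis) of each of the 16 probes (rows) in the arch pool (red) and the thoracic pool (blue) on array 1 (filled circles) and array 2 (open triangles). Cd5l runs from 560.1 to 10133 between the pools, while the 4 values of the brighter Emr1 probe lie between 2076.5 and 2221.

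Cd36, a scavenger receptor that takes up oxidised lipoproteins and fatty acids, was covered by a pair of probes. The brighter probe gave 1289 and 1167 in the arch pool and 1134 and 1003.5 in the thoracic pool, 1.15-fold (0.20 ± 0.02). The other gave 765 and 738 against 575 and 608, 1.27-fold (0.35 ± 0.09). Both probes were higher in the arch pool on both arrays, with no overlap, and neither reached 1.5-fold.

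Fabp4 and Fabp5 are fatty acid binding proteins that both adipocytes and macrophages make. Fabp5 gave 242 and 263 in the arch pool and 107 and 128 in the thoracic pool, 2.15-fold more in the arch (1.11 ± 0.10, rank 80). The pools did not overlap. The size of this ratio depended on the treatment of background, as the signal was low: the log2 ratio was 1.60 without the offset and 1.71 in the deposited log ratio, and 0.95, under the size rule, with no background correction. Fabp4 was not higher in the arch pool on any of its 3 probes by the size rule. The brightest probe gave 51127 and 54987 in the arch pool and 51909.8 and 52662 in the thoracic pool (0.02 ± 0.06), and the next gave 48514 and 52195 against 51365 and 49884 (-0.01 ± 0.10). On array 1 the thoracic signal of both probes was saturated, so their ratios are set in part by the scanner's ceiling. The unsaturated probe gave 1518 and 1447 in the arch pool and 1759.7 and 1720.3 in the thoracic pool, 1.17-fold more in the thoracic pool (-0.23 ± 0.03). Its pools did not overlap, and it lay on the other side of 0 from Fabp5.

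Adfp, adipophilin or perilipin 2, coats lipid droplets and accumulates with the lipid a cell stores. It gave 5655 and 5525.5 in the arch pool and 3700.3 and 3732 in the thoracic pool, 1.50-fold (0.59 ± 0.03, rank 314). The pools stood apart on both arrays, but array 2, at a log2 ratio of 0.57, lay just under the 1.5-fold limit.

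**Figure D3:**
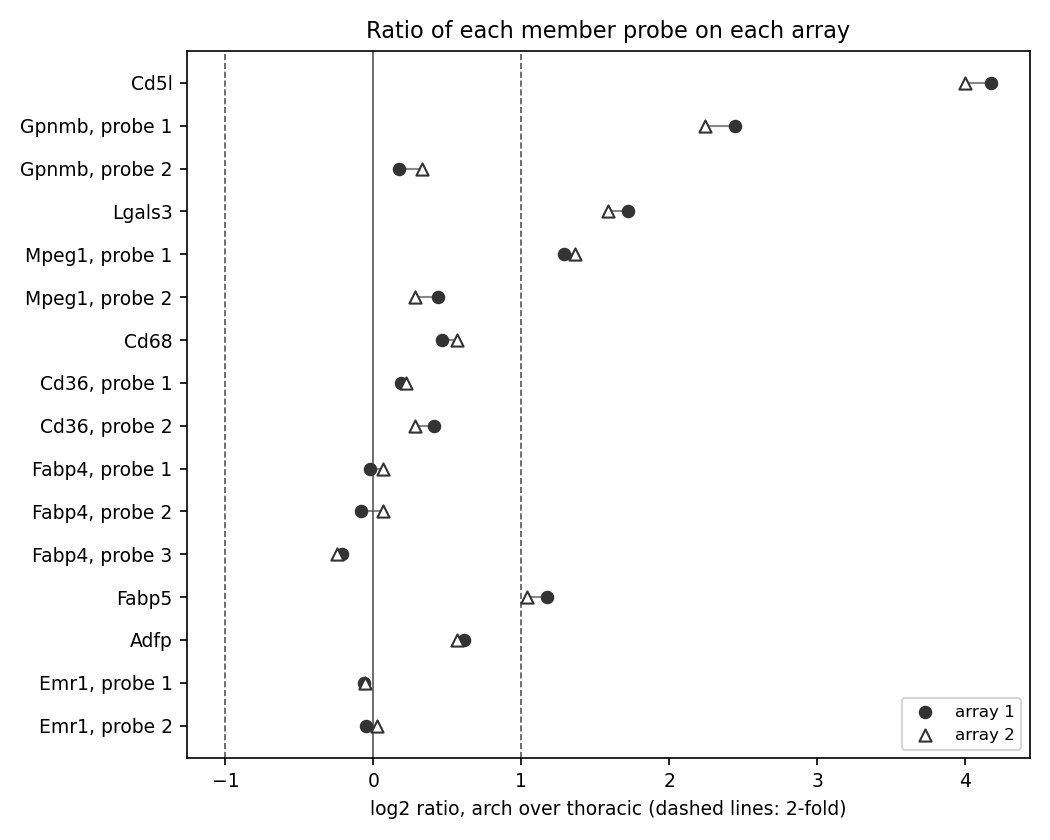
Log2 ratio of arch over thoracic (x axis) of each of the 16 probes (rows) on array 1 (filled circles) and array 2 (open triangles), with dashed lines at 2-fold. Of the 16 probes 11 lie above 0 on both arrays and 2, the brighter Emr1 probe and the unsaturated Fabp4 probe, lie below 0 on both. Both arrays hold the same pools, and the share of all probes with the same sign on both is not given.

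Ordered by the mean ratio of the probe that stands for each gene, the 10 ran Cd5l, Gpnmb, Lgals3, Mpeg1, Fabp5, Adfp, Cd68, Cd36, Fabp4 and Emr1. Neighbours in this order were separate on the 2 arrays, in that the lower value of one lay above the higher value of the next, except Adfp and Cd68, which met at 0.57. This separation covers the spread between arrays only, and the order depended on probe and processing. Fabp4 stands above Emr1 only by a saturated probe: its unsaturated probe, at -0.23, lay below Emr1 at -0.06. Fabp5 passed Mpeg1 with no offset (1.60 against 1.37) and in the deposited log ratio (1.71 against 1.37), where it also stood just above Lgals3 (1.69). The SD between arrays was 0.14 at most among the 10 genes, against a median of 0.06 and a 95th percentile of 0.18 over all genes.

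Other macrophage genes were read in the same pools. Cd5l and Gpnmb were chosen with their ratios known, so no contrast with them is drawn. The gene lists too were chosen with earlier results known, so nothing is read from their counts. By the size rule 2 of 34 were higher in the arch pool, none in the thoracic pool and 32 in neither. Over all genes compared, 0.474% passed as higher in the arch pool and 0.145% as higher in the thoracic pool. The median of the list was 0.14 (0.07 with median centring in place of loess), with 22 genes above 0. Clec7a, the beta-glucan receptor dectin-1, gave 1818 and 1780 in the arch pool against 618 and 636 (1.52 ± 0.05). Trem2, a lipid-sensing receptor of foamy macrophages, gave 3380 and 3188 against 1445 and 1446 (1.18 ± 0.06), and a further probe stood at 0.93. Next in size were Lyve1, a hyaluronan receptor (-0.58 ± 0.00), and Lyz1, a lysozyme (0.48 ± 0.01). Among genes that most macrophages express, named here after their values were seen, the growth factor receptor Csf1r stood at 0.07 ± 0.09, Aif1 at -0.03 ± 0.07, the complement subunit C1qc at -0.01 ± 0.07, the mannose receptor Mrc1 at 0.01 ± 0.02 and the Fc receptor Fcgr3 at 0.01 ± 0.07. With Emr1, these genes gave near-equal signals in the pools. The summed signal of the 33 unsaturated genes of the list was 77374 and 76723 in the arch pool and 64952 and 64948 in the thoracic pool. Lyz1 gave the largest share of that sum and most of its difference, with 29528 and 29614 against 21047.5 and 21376.

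Genes of cholesterol export and lipid breakdown included several of the larger ratios. Of 26 lipid handling genes, 2 were higher in the arch pool by the size rule and 24 passed in neither direction (median 0.13, 20 above 0). These were the cholesterol exporters Abcg1, with 895 and 1012 against 240.2 and 221 (2.05 ± 0.21), and Abca1, with 2257 and 2387 against 951 and 946 (1.29 ± 0.06). Nceh1, which hydrolyses cholesterol esters, stood just under 2-fold with 595 and 591 against 303 and 306.5 (0.96 ± 0.02), as did Lpl, lipoprotein lipase (0.95 ± 0.13). At 1.5-fold, 6 of the 26 were higher in the arch pool.

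In the list of lysosomal and matrix-degrading genes of macrophages, 6 of 23 were higher in the arch pool by the size rule, none in the thoracic pool, and 21 lay above 0 (median 0.21, and 0.38 in the deposited log ratio). Spp1, osteopontin, gave 21164 and 20939.5 in the arch pool against 4427 and 4274 (2.27 ± 0.03). Atp6v0d2, a proton pump subunit of macrophages and osteoclasts, gave 298 and 309.5 against 99.5 and 103.8 (1.58 ± 0.01). Mmp12, the macrophage elastase, gave 314 and 327.5 against 112.4 and 110.8 (1.52 ± 0.06). All values of these genes were higher in the arch pool with no overlap. The other 3 were Ctss, cathepsin S (1.18 ± 0.09), Psap, the precursor of the saposins that activate lysosomal lipid hydrolases (2.15-fold, with a further probe at a log2 ratio of 0.92), and Grn, progranulin (1.03 ± 0.06, with a further probe at 0.26). With median centring in place of loess 4 of the 23 passed. The share of all genes that passed for the arch pool was 0.474% as reported and 0.447% with median centring. For the thoracic pool it was 0.145% and 0.149%.

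Relatives of the foam cell genes within their own families passed the size rule in 0 cases. Of all genes compared, 0.474% passed as higher in the arch pool and 0.145% as higher in the thoracic pool. In lists this short the count of 0 is near that share, and no contrast with the families is read from it. Among 8 further genes of the fatty acid binding protein list (median -0.03, 3 above 0), Fabp7 stood at 0.42 ± 0.03 and Fabp3, the heart form, at -0.21 ± 0.01. Fabp1, the liver form, was not well above background in the arch pool on either array and by a lower bound differed at least 1.94-fold, with 129.1 and 118.5 in the thoracic pool. It passed the size rule as higher there without the offset and in the deposited log ratio. That bound sets the thoracic mean against the higher, on each array, of the lowest signal well above background and the probe's own arch signal, 66.8 and 60.8. The 4 other perilipins lay between Plin3 at -0.09 ± 0.04 and Plin5 at 0.19 ± 0.04. The 10 scavenger receptors compared lay above 0 on the probes that stand for them (median 0.20, and 9 or 10 of them above 0 in each alternative). They were led by Colec12 (0.46 ± 0.09), Msr1 (0.38 ± 0.11) and Cxcl16 (0.37 ± 0.00), with further probes at 0.57, 0.15 and 0.05. A further probe of Scara5 lay below 0, at -0.21, and with the median over probes the median of the list was 0.13. Among 8 galectins and galectin-binding genes Lgals3bp stood at 0.59 ± 0.00, Lgals2 at 0.43 ± 0.08 and Lgals9 at 0.37 ± 0.00. Of these 8, 5 lay above 0 (median 0.10, lowest -0.16). Among 6 adhesion receptors related to Emr1, Adgrg1 stood at 0.36 ± 0.09 and Adgre5 at 0.27 ± 0.02, and 4 of the 6 lay above 0 (median 0.09, lowest -0.14).

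Position on the chromosome was looked at as a feature the choice of genes did not use. Fabp5 and Fabp4 lie in 1 cluster on mouse chromosome 3, with Fabp9 (-0.06 ± 0.05) between them and Fabp12 (-0.02 ± 0.12) beyond Fabp4, so the ratio of 1.11 at Fabp5 was not met by the cluster members compared. Of the 43 other genes compared within 3 genes on either side of a foam cell gene, 0 differed by 1.5-fold or more in the mean. Over all genes, 1.2% passed 1.5-fold in the mean and on each array with more arch signal, and 0.382% with more thoracic signal. A count of 0 among 43 genes is near these shares, and nothing about position is read from it. The log2 ratios of the 43 neighbours ran from -0.57 to 0.50, with a median of 0.01.

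**Figure D4:**
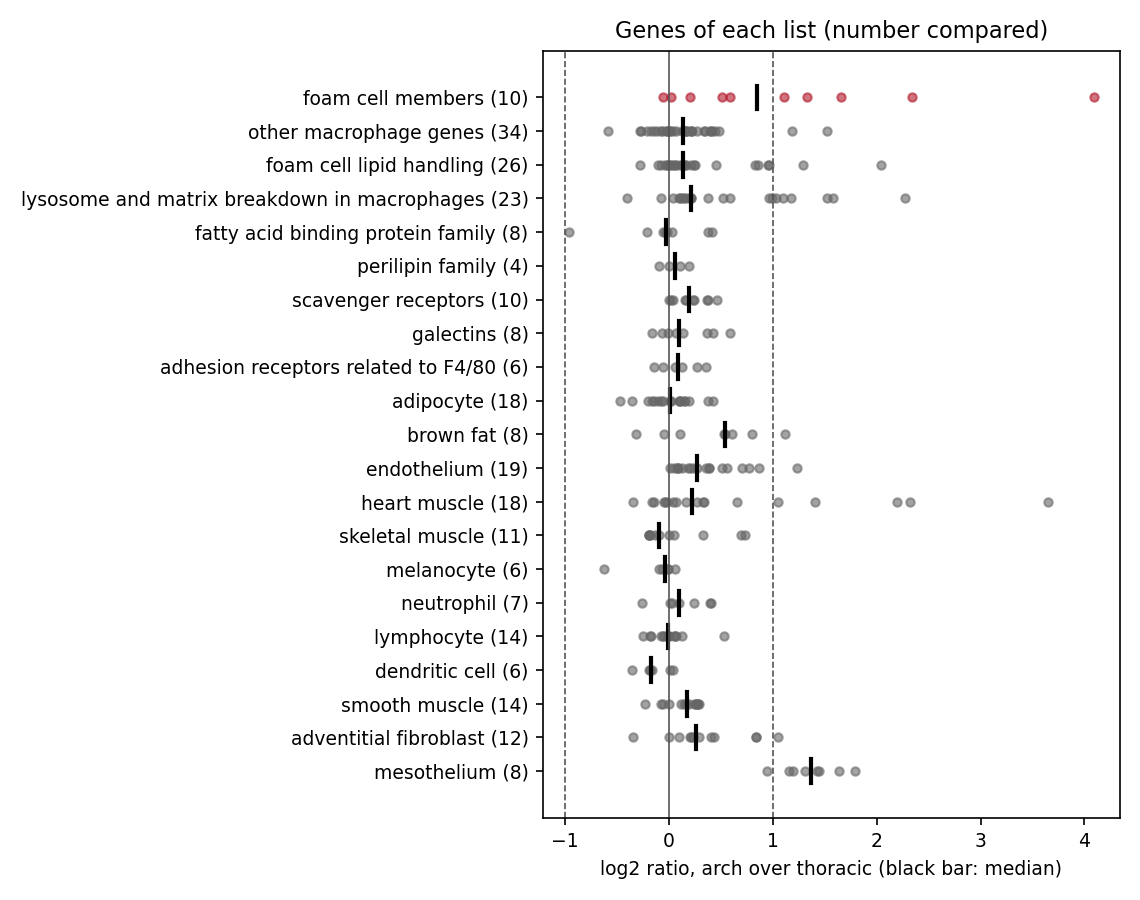
Log2 ratio of arch over thoracic (x axis) of every gene compared in the foam cell list (red) and 20 other lists (grey), with the number of genes in brackets, a black bar at each median and dashed lines at 2-fold. The median is 0.85 for the foam cell genes, 0.14 for other macrophage genes, 0.01 for adipocyte genes and 1.37 for mesothelium. The foam cell genes were chosen with these ratios known, so no contrast of medians is read.

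Several of the 10 genes are not made by macrophages alone, so markers of other cells were read in the same pools. Over all genes compared, 0.474% passed the size rule as higher in the arch pool and 0.145% as higher in the thoracic pool. In lists this short a count of 0 is near that share. Adipocytes make Fabp4, Cd36 and Adfp. Of 18 adipocyte genes none passed the size rule (median 0.01, 10 above 0), and the largest ratios pointed both ways: Retn, resistin, stood at -0.47 ± 0.15, the desaturase Scd1 at 0.43 ± 0.02, Pck1, an enzyme of glycerol synthesis in fat, at 0.37 ± 0.01 and Cfd, adipsin, at -0.35 ± 0.14. The summed signal was 60748 and 58834 in the arch pool and 62045 and 63244 in the thoracic pool. Without Cfd, which gives the largest share of that sum, it was 42137 and 41691 against 39946 and 39813, so the order of the sums turned. The 8 brown fat genes had a median of 0.54, with Dio2, an activator of thyroid hormone, past the size rule (1.12 ± 0.03) and summed signals of 18986 and 17999 against 11736 and 11518. Pigment cells make Gpnmb. Of 8 melanocyte genes Tyr and Tyrp1 were not well above background, none of the other 6 passed (median -0.03), Mlana stood at -0.62 ± 0.16, and the sums were 902 and 955 in the arch pool against 1012 and 1085.

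Heart muscle and capillary endothelium make Cd36. Of 18 heart muscle genes 5 were higher in the arch pool by the size rule, led by the atrial light chain Myl7 (3.65 ± 0.12), while the median was 0.22, 12 of the 18 lay above 0 and 6 below it. In the deposited log ratio that median was 0.41. The summed signals were 29430 and 32265 against 24208 and 22447, and 8247 and 8225 against 3100 and 3336 without Actc1, which gives most of the sum. The 19 endothelial genes lay above 0 on the probes that stand for them (median 0.27, and 18 of the 19 without either array). Further probes of Flt1, Cdh5 and Sox17 lay below 0, at -0.149, -0.015 and -0.007. With the median over probes the 19 stayed above 0 (median 0.25). They were well above background in both pools despite the detergent, with sums of 5612 and 5613 against 4172 and 4239. The growth factor receptor Kdr passed the rule (1.24 ± 0.04), and 3 genes passed it in the deposited log ratio. Mesothelium, the lining of the heart sac and chest cavity, had 7 of 8 genes past the rule, all higher in the arch pool (median 1.37), and sums of 8294 and 7788 against 3130 and 3023. Of the leukocyte lists, none of 7 neutrophil genes (median 0.10, but 0.39 with no offset and 0.42 in the deposited log ratio), 14 lymphocyte genes (-0.01) and 6 dendritic cell genes (-0.17) passed. Skeletal muscle genes had a median of -0.09 with 0 of 11 past the rule (-0.19 and 1 in the deposited log ratio), and of 12 adventitial fibroblast genes Lum, lumican, passed (1.05 ± 0.02, median 0.26), a call lost with median centring in place of loess, where 0 passed. Beside these counts stand 0.474% of all genes compared that passed as higher in the arch pool and 0.145% as higher in the thoracic pool. The part of these tissues in the ratios of the foam cell genes was not tested.

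**Figure D5:**
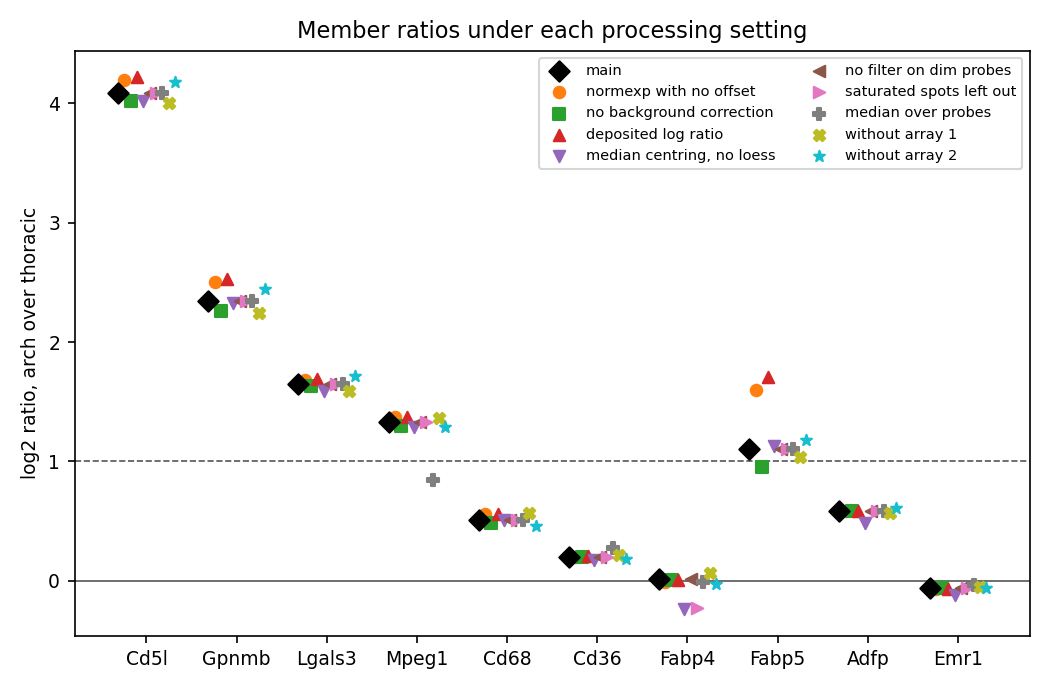
Log2 ratio of arch over thoracic (y axis) of each of the 10 genes (x axis) in the reported processing (black diamonds) and 9 alternatives (coloured symbols), with a dashed line at 2-fold. Cd5l, Gpnmb and Lgals3 stay above the line throughout, while Mpeg1 with the median over probes (0.84) and Fabp5 with no background correction (0.95) lie under it.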

How the data were processed

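The deposited scanner tables give, per the file headers, intensity values for each spot: the mean red and green signal and the median local background, not normalised. The headers name Agilent Feature Extraction 8.1.1.1 and the submitters' processing notes 9.1.1.1. The deposited log10 ratio is red over green processed signal, after background subtraction and dye normalisation per the file headers. The deposited table of both arrays holds the same log10 ratios turned to arch over thoracic (r of at least 0.9998 over 41174 rows, medians of 0.00) and was not used further. For the probes' genome build, nothing is given in the sources used here.

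With limma 3.58.1 in R 4.3.3, mean signals were corrected by normexp with an offset of 50 and normalised by loess with control spots at weight 0. Outlier spots (5 to 8 per array) were left out, spots of a probe were averaged, array 1 was turned and both arrays were averaged. Signals per pool were then scaled between arrays (Aquantile). Probes had to be well above background in at least 1 pool on both arrays (32183 of 41174), and the brightest stood for its gene. Names came from RefSeq tables of GRCm38.p6: of 41534 spots 21839 matched by accession, 5403 by current symbol and 4629 by synonym, and 9663 kept the file's name. Applied to the dyes in place of the pools, the size rule was passed by 0 genes; no test was run, as there is 1 pool per segment. The steps were tested on simulated data. The members and gene lists were chosen with earlier results of these data known. Named are all 10 genes with every probe and, from each other list, up to 4 genes, those past the size rule first and then by size (fewer where the list is only summarised; all 6 lysosomal genes that passed). A gene that this rule selects is not reported here.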

Additional observations from a re-analysis of the deposited data

How the results depend on the processing

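With 1 pool per segment the values describe these pools, and at low signal the ratio depends on background treatment. The size rule found 108 genes for the arch and 33 for the thoracic pool as reported, while 196 and 66 passed with no offset, 232 and 77 in the deposited log ratio, and 274 and 87 at 1.5-fold in the mean. The median of the 10 genes, 0.85, became 0.98 with no offset (0.977) and in the deposited log ratio (0.981), 0.77 with no background correction and 0.72 with the median over probes. Without either array in turn, the count for the arch was 103 to 114, and the same 5 foam cell genes passed. Over the 9 alternatives, Cd5l ranged from 4.00 to 4.22, Gpnmb from 2.24 to 2.53, Lgals3 from 1.59 to 1.72, Adfp from 0.49 to 0.61, Cd68 from 0.46 to 0.57, Cd36 from 0.17 to 0.27 and Emr1 from -0.12 to -0.04, each on its side of the size rule. Mpeg1 (0.84 to 1.37) fell under the rule with the median over probes, which brings in its dim probe, and Fabp5 (0.95 to 1.71) with no background correction. Fabp4 ranged from -0.24 to 0.06 and lay above 0 in 4 of the 9, at -0.23 with saturated spots left out and -0.24 with median centring in place of loess. Medians of the other lists kept their sign in the 9 alternatives, except fatty acid binding proteins (up to 0.06), adipocyte (down to -0.04), lymphocyte (up to 0.02) and smooth muscle (down to -0.03) genes. No paired analysis was possible because both arrays belong to 1 group and hold the same RNA pools.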

Other observations

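Some macrophage genes stood below 0 while Cd5l, Gpnmb and Trem2 stood above it. Lyve1, which lymphatic endothelium also makes, gave 1574 and 1541 in the arch pool and 2360 and 2309.6 in the thoracic pool (-0.58 ± 0.00, with a further probe at -0.24). Named after their values were seen are the next 3, of which the haemoglobin scavenger receptor Cd163 gave 1467 and 1553 against 1794 and 1854 (-0.27 ± 0.02). The folate receptor Folr2 gave 2689 and 2538 against 3078 and 2963 (-0.21 ± 0.02), and Timd4, a receptor for dying cells, gave 305 and 310.5 against 379 and 359.7 (-0.26 ± 0.07). These genes were picked as the lowest ratios of the list, in which 22 of 34 genes lay above 0. No type of macrophage is read from them. Each of those picked had both thoracic values above both arch values, and none passed the size rule.

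The probes of Itgax, the integrin chain CD11c, disagreed. The probe that stood for the gene gave 178 and 172 in the arch pool and 192 and 202 in the thoracic pool (-0.17 ± 0.09), while the other gave 267 and 286 against 118.5 and 114.1 (1.25 ± 0.11). Which probe reports the gene was not tested.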
